A study of Drosophila melanogaster with 3 samples.

Results

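Among the places where tagged Prospero was found in fly embryos, 892 of 5137 peak regions carried more than a single summit. A summit is the position of highest enrichment that a peak caller marks, and a region is the stretch between the peak's 2 ends. The members were chosen by their measured ends and summits: in the optimal peak set, a stretch with the same chromosome, start and end that occurred on 2 or more lines, each with its own summit, was taken as a multi-summit region. These regions held 1970 of the 6215 summits of the set, and the other 4245 regions had 1 summit each. Summit number, spacing, width and strength are therefore described without a test, since they come from the peak calls that selected the members.

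The embryos were of the strain pros-GFP, aged 2 to 18 h per the source names, with males and females pooled. They stably expressed, from a transgene, Prospero with green fluorescent protein (GFP) at its C terminus, per the labels. Per the descriptions an antibody to GFP was used, so the tagged protein was precipitated in whole embryos and the cell types that contributed cannot be told apart. Which promoter drove the transgene, and whether untagged Prospero was present, is not stated in the labels. The study has 1 group of 3 replicates, which the labels call biological without saying whether embryos were collected separately, so the spread between them may be technical.

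Prospero is a homeodomain transcription factor. Neural stem cells of the fly, the neuroblasts, hand it at division to the smaller daughter cell, where it enters the nucleus, represses genes of self-renewal and cell division and takes part in activating genes of differentiation. In chromatin immunoprecipitation with sequencing, DNA bound by a protein is enriched and read. Neighbouring binding sites, or a broad stretch of enrichment, can both give a peak region with several summits. Enhancers of developmental genes often hold clusters of sites for the same factor.

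Sequences at the summits of 4 of these regions are shown because they span the arrangements seen: a core at summits far apart, a core at both summits of a close pair, and no core at any summit. The core searched was AAGACG, read as CGTCTT on the other strand, within 100 bp to either side of a summit. It was present at 11.3% of all 6215 summits. The regions shown are, among those with the core at 2 or more summits, the 3 with the strongest leading summit, and the strongest without it, leaving out the second chromosome's right arm. All runs are the plus strand of the dm6 build read from the RefSeq genome sequence, and capitals mark the core. In an intron of aop, which encodes the repressor Yan, the core lay at the summit -1398 bp from the leading summit (chr2L:2163713-2163756) and at the summit 233 bp from it (chr2L:2165294-2165364), but on neither strand at the leading summit itself. In the region nearest to CG4935, which lies in an intron of crp, both summits, some 200 bp apart, held the core, and chr2L:16269261-16269557 spans both. In an intron of tna, 3 of the 6 summits held it, at -874 bp (chr3L:10842131-10842239), 898 bp (chr3L:10843891-10843923) and 2844 bp (chr3L:10845838-10845869) from the leading summit. At the promoter region of pros itself none of the 6 summits held these letters in the window, and 81 bp around the leading summit are given (chr3R:11372474-11372554). The absence of the letters says nothing beyond that window.
aop, summit at -1398 bp: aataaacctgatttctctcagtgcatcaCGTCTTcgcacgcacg
aop, summit at 233 bp: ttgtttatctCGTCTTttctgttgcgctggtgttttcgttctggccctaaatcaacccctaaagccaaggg
CG4935, both summits: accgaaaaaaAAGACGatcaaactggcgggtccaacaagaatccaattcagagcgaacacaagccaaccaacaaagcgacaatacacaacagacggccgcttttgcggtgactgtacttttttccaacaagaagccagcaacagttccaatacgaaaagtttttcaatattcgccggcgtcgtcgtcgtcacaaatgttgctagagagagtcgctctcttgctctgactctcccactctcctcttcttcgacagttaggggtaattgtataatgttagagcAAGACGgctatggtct
tna, summit at -874 bp: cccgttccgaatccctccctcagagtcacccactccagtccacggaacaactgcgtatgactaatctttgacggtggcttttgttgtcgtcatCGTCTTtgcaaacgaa
tna, summit at 898 bp: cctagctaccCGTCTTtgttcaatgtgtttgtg
tna, summit at 2844 bp: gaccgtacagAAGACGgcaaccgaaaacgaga
pros, leading summit: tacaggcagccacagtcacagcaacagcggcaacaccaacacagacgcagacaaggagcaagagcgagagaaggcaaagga

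Most multi-summit regions were pairs of close summits. Of the 892, 778 (87.2%) had 2 summits, 79 had 3, 18 had 4, 6 had 5, 8 had 6, 2 had 7 and 1 had 13. Neighbouring summits within a region were 205 bp apart at the median over 1078 pairs. Of these pairs, 707 (65.6%) lay 199 to 210 bp apart, and a further 137 (12.7%) 211 to 249 bp apart. The others were spread over a long range, with 56 pairs (5.19%) at 250 to under 500 bp, 122 (11.3%) at 500 to 999 bp and 56 (5.19%) at 1000 bp or more, the longest at 2105 bp.

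No 2 neighbouring summits lay closer than 199 bp, whether in the optimal set, in the list called on pooled reads or in any replicate's list. Taking the 6215 strongest summits of each replicate's own list and applying the same rule gave 511, 760 and 560 multi-summit regions in replicates 1, 2 and 3, with median spacings of 203, 203 and 205 bp. The shortest was 199 bp in each. The pile of spacings therefore began at the same distance in 4 lists of strongest peaks, and whether that distance is set by the caller was not tested. The labels give a fragment size of 200 to 800 bp after sonication, and a spacing of this size is at its short end. The plot of spacings shows the peak at 200 to 209 bp and the tail of wider pairs after it.

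**Figure D1:**
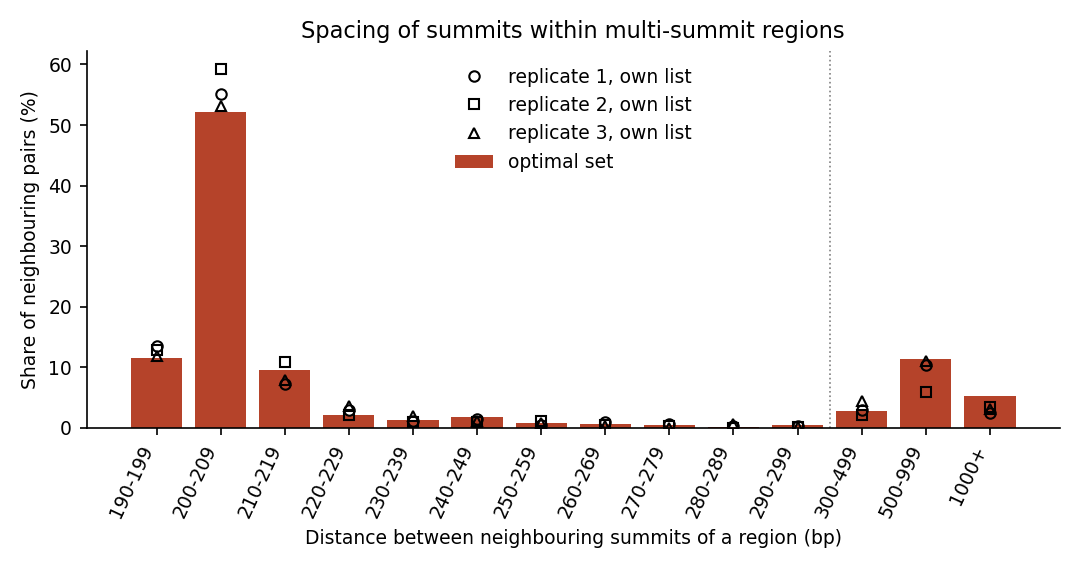
Share of neighbouring summit pairs within multi-summit regions (percent, vertical) by the distance between them (bp, horizontal; bins right of the dotted line are wider). Bars give the 1078 pairs of the optimal set and open symbols the pairs in the strongest 6215 summits of each replicate's own list; 52.1% of pairs in the optimal set fall at 200 to 209 bp.

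By spacing the regions fell into 3 kinds. In 723 (81.1%) every neighbouring pair was under 250 bp apart, called close here. In 50 (5.61%) every pair was 500 bp or more apart, called wide. The remaining 119 (13.3%) were called mixed, which includes any region with a pair 250 to under 500 bp apart. Mixed regions were the longest, with a median width of 2040 bp, against 1781 bp for wide and 906 bp for close regions. Of the close regions 10.5% had further summits with the same ends in the pooled list that fell below the optimal set, and of the wide regions 56.0%.

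Multi-summit regions were wide and strong, both of which the rule favours. Their median width was 980 bp (437 to 12114 bp), against 461 bp (124 to 2098 bp) for single-summit regions. On a rank percentile of signal that runs to 100 for the strongest summit of the set, their leading summit, the strongest of each region, had a median of 85.8, against 42.2 for single-summit regions. The weakest summit of each member had a median percentile of 41.4, close to that of single-summit regions. Of the 892 members, 37.1% had a leading summit among the strongest 10% of summits, against 4.95% of single-summit regions. With all regions ranked in 5 equal groups by leading summit, the share with several summits was 0.486%, 1.56%, 8.57%, 22.4% and 53.8% going from the weakest to the strongest group.

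**Figure D2:**
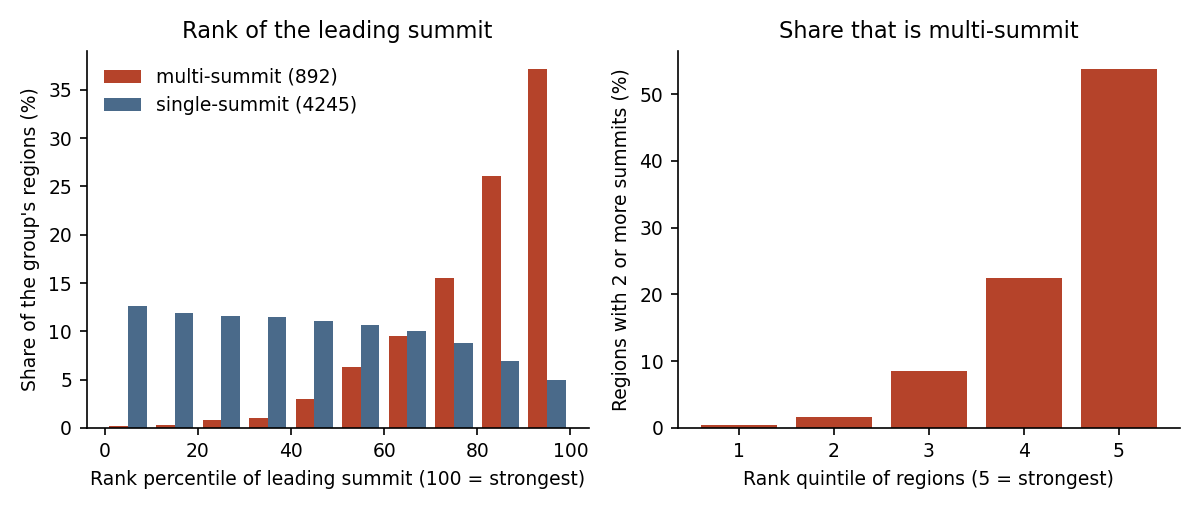
Left, share of each group's regions (percent) by the rank percentile of the leading summit, for 892 multi-summit and 4245 single-summit regions. Right, share of regions with 2 or more summits in each rank quintile of regions, which is 0.486% in the weakest and 53.8% in the strongest.

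Within a region the leading summit usually stood out. Its signal was 1.88 times that of the second summit at the median, with a range of 1.00 to 42.2. In regions of 3 or more summits the leading summit was an inner one in 40 of 114 (35.1%). The share of inner positions among a region's summits averaged 40.8% over these regions. In the 2-summit regions with both summits matched in a replicate's list, the median signal of the second over the leading summit was 0.45, 0.532 and 0.45 in replicates 1, 2 and 3. The leading summit was the stronger there in 98.3%, 98.6% and 97.5% of the regions, so the order within pairs was nearly always kept.

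Whether a region counts as multi-summit depends on where the set ends. The second summits of the mIF2 and Inx2 regions had signals of 252 and 253, just inside the set, and made these regions members. The regions at N and gcl had a further pooled summit with a signal of 252, 205 and 206 bp from their summits, just outside it, and were single-summit regions. In all, 925 single-summit regions (21.8%) had 2 or more summits with the same ends in the pooled list, and 158 members (17.7%) had more there than in the optimal set. Regions that overlap without sharing both ends were counted apart, which touched 38 members (4.26%) and 328 single-summit regions (7.73%).

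The 10 regions with the most summits held 6 to 13 each. The longest, between CG13334 and CG42807, held 13 summits in 12114 bp (chr2R:13559393-13571506), among them the 2 strongest of the whole set, with signals of 24613 and 21450. Its leading summit ranked first in each replicate. Of the 13 summits 9 were matched within 150 bp among the 6215 strongest of all 3 replicates, 1 held the core, and the region overlaps an annotated mobile element. The summit -6663 bp from the leading one ranked 5, 5 and 4 in replicates 1, 2 and 3. The summit at 3785 bp ranked 5224 in the optimal set. The replicate summits matched to it lay at 3704, 3691 and 3692 bp and ranked 46, 33 and 42 in replicates 1, 2 and 3, and whether they mark the same position as the pooled one was not tested.

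Next came a region of 7 summits at the start of Polr1D, a subunit shared by RNA polymerases I and III, inside brat, a translational repressor that neuroblast daughters inherit with Prospero (chr2L:19134653-19140443). Its leading summit ranked 121, 86 and 100 in replicates 1, 2 and 3, and 6 of its summits were matched in all 3. The region of 7 summits at Imp, which encodes an RNA-binding protein of neuroblast timing, spanned chrX:10821889-10826562. Its leading summit, at -1.67 kb from the nearest start site (negative is upstream), ranked 255, 515 and 297, and 3 of its summits were matched in all 3 replicates. The other summits, apart from 1 in intergenic sequence, were at promoters of the gene.

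The promoter region of pros held 6 summits in 5677 bp (chr3R:11368236-11373912), with the leading summit at -0.274 kb from a start site and a signal of 10275. It ranked 6 in every replicate. The next strongest summit, at -1949 bp in an intron, had a signal of 1644 and ranked 153, 204 and 251 in replicates 1, 2 and 3. Each replicate's list also had a summit 224, 223 and 235 bp from the leading position, ranked 24, 20 and 24 in replicates 1, 2 and 3, to which no summit of the optimal set corresponds. Taken within 1 kb upstream and the gene body, pros had 25 summits in 12 regions, and 20 of them lay in 7 multi-summit regions. The strongest of the 25, of rank 3 in the optimal set, lay in a single-summit region.

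The kis region, at a gene for a chromatin remodelling protein, also had 6 summits, all matched in the 3 replicates (chr2L:219264-225212). Its leading summit, at -0.219 kb from a start site, ranked 11, 12 and 11, and a close pair lay at 2105 and 2306 bp. In Trl, which encodes GAGA factor, 6 summits covered 5897 bp (chr3L:14754690-14760586), all of them matched in the 3 replicates, with the leading summit at ranks 23, 22 and 22. The summits at 2077 and 2893 bp lay at promoters, 1 of them that of CG42507. In both regions summits lay at promoters as well as in introns.

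The remaining 4 regions held 6 summits each. In E2f1, a transcription factor gene of the cell cycle, the leading summit had a signal of 1769 and the one at 1889 bp a signal of 1681, and their ranks in replicates 1, 2 and 3 were 175, 235 and 173 for the leading one and 182, 213 and 223 for the other. The leading one ranked above the other in replicates 1 and 3 and below it in replicate 2. In tna, whose sequences are given above, the leading summit ranked 167, 286 and 207, and 5 summits were matched in all 3 replicates. At CG6118 only 2 of the summits were matched in all 3, and at CG13321 4 were. The map of these regions shows which summits recur.

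**Figure D3:**
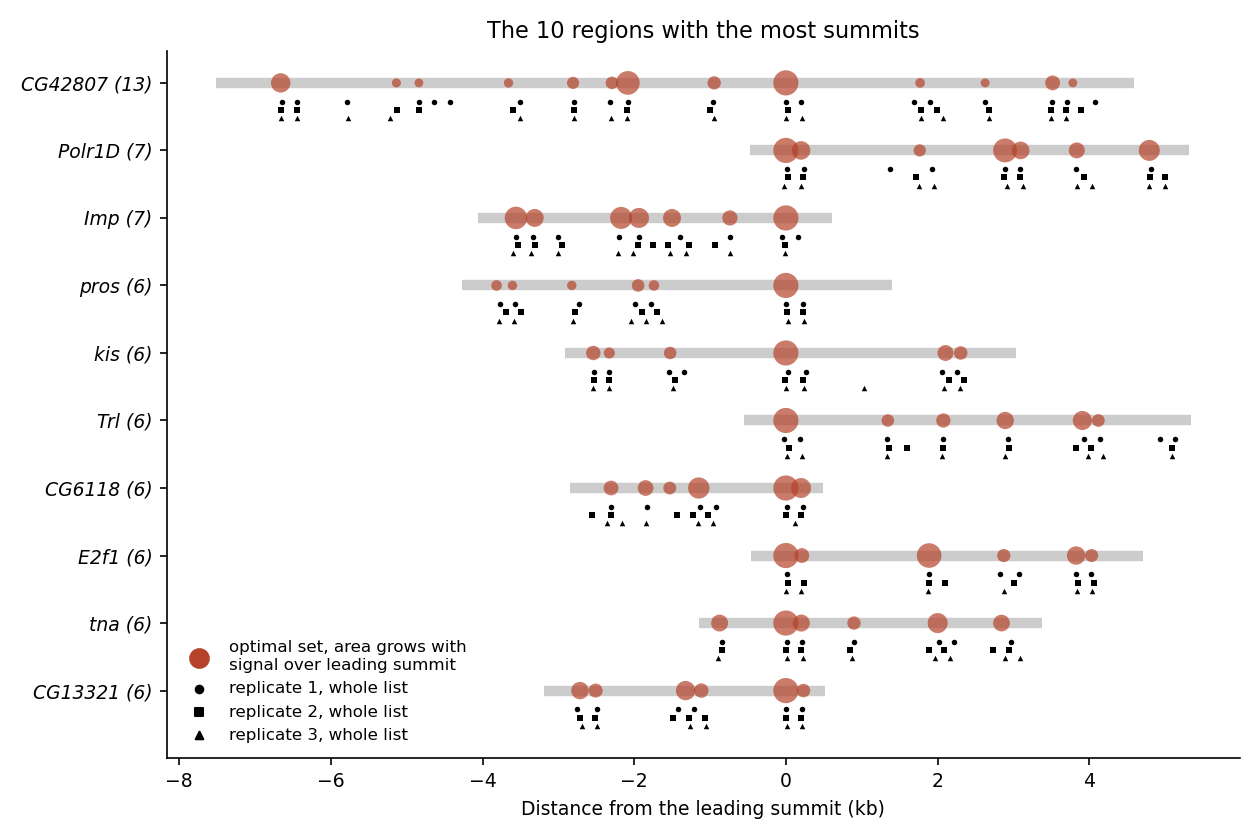
The 10 regions with the most summits, from 13 (CG42807) at the top, drawn by distance from the leading summit (kb). Grey bars are the regions, filled circles the summits of the optimal set with area growing with signal over that of the leading summit, and small symbols below each bar every summit of the 3 replicates' whole lists; replicate summits often come as close pairs where the optimal set has 1.

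Of the 10 regions with the strongest leading summit, 4 are those at CG42807, pros, kis and Trl. The second by strength was the region at E(spl)mbeta-HLH, a target of Notch signalling that represses neural fate. Its leading summit, at -0.417 kb from the start site and with the core, had a signal of 14157 and ranked 4, 4 and 5 in the replicates. The other summit of that region, 1034 bp away, had a signal of 336 and ranked 4828, 12057 and 2571, so this region is a strong summit with a weak neighbour.

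The region at KP78a, a kinase gene inside pros, was of the opposite kind, with signals of 8195 and 7202 at summits 1460 bp apart and 2323 at the remaining one. Their ranks in replicates 1, 2 and 3 were 8, 8 and 9 for the leading summit, and 13, 10 and 12 for the second. At ph-d, a Polycomb group gene next to its near-copy ph-p, the leading summit ranked 14, 18 and 14. How reads were divided between such copies is not given in the sources used here. At sns, which encodes a receptor of myoblast fusion, summits 216 bp apart had signals of 5704 and 2542, and the leading one ranked 25, 9 and 28. In an intron of neur, an E3 ubiquitin ligase of Notch signalling, 2 summits 1036 bp apart had signals of 5449 and 1413, and the nearest start site was that of tgo. At stet, a rhomboid protease gene, 2 summits 230 bp apart had signals of 4831 and 948. They lay 0.674 and 0.444 kb from its start site, so only the weaker was within 500 bp of it.

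Among the strongest summits of each replicate, recurrence was high for leading summits and lower for the others. A summit counted as matched when a summit among the 6215 strongest of a replicate lay within 150 bp, each used for 1 match. The optimal set was called on the pooled reads of the same replicates, so these matches are not independent of it. Leading summits of multi-summit regions were matched in 94.1%, 92.7% and 94.3% of cases in replicates 1, 2 and 3, their other summits in 74.8%, 81.2% and 71.7%, and summits of single-summit regions in 82.3%, 78.9% and 85.4%. The means were 93.7% ± 0.849 for leading, 75.9% ± 4.83 for other and 82.2% ± 3.26 for single summits (SD, n = 3). By this count leading summits were above single-summit regions in every replicate. The other summits were below single-summit regions in replicates 1 and 3 and above them in replicate 2. In the whole replicate lists leading summits were instead below single summits in every replicate. Leading summits were matched there in 94.7%, 93.3% and 95.3%, other summits in 95.3%, 95.1% and 95.1%, and single summits in 98.6%, 97.8% and 98.8%.

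Matched in all 3 replicates were 1255 of the 1970 summits (63.7%), against 60.2% of single-summit regions, and 61.3% of the whole set. At like strength the order turned round, except in the weakest group. With summits split in 5 groups by signal rank, 48.4% of members' summits in the middle group were matched in all 3 (exact binomial 95% interval 42.8% to 54.1%), against 83.0% (80.4% to 85.4%) of single summits. In the next stronger group 76.0% of members' summits and 97.4% of single summits were matched in all 3, and in the strongest 92.4% of members' and 99.8% of single summits. In the second weakest group it was 22.1% of members' and 44.3% of single summits, and in the weakest 9.80% of members' and 7.03% of single summits. Per replicate in the whole lists the groups lay closer. In the middle group 91.2% of members' and 98.8% of single summits were matched on average, and in the weakest 94.3% and 97.2%. When single-summit regions were weighted to the rank groups of the members, 79.6% were matched in all 3, which is 15.9 percentage points above the members. In 301 of the 892 regions (33.7%) every summit was matched in all 3.

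**Figure D4:**
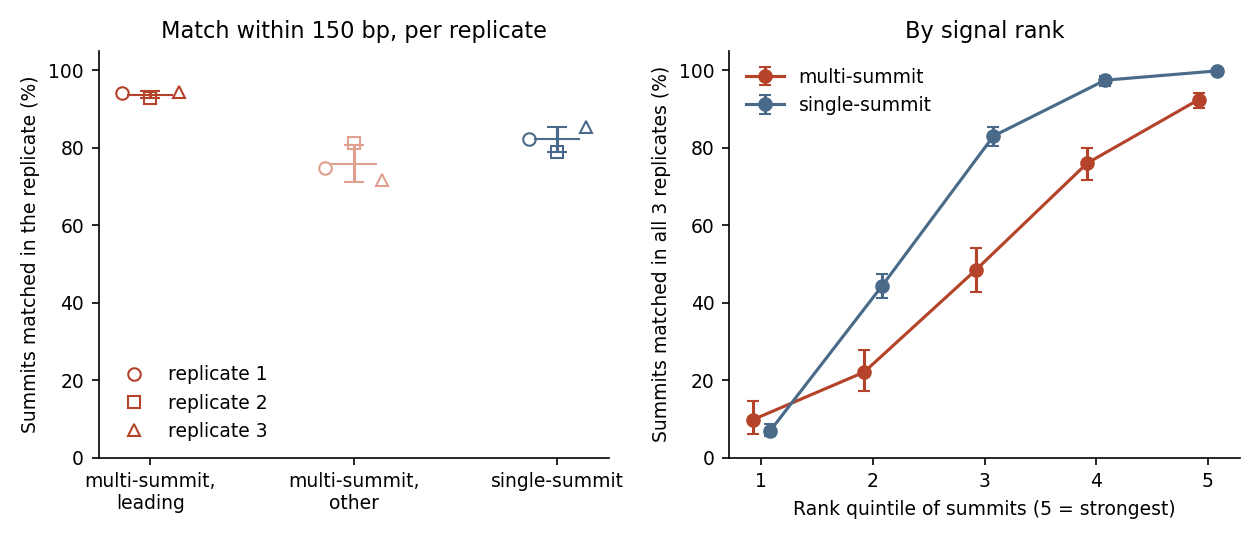
Left, summits of the optimal set matched within 150 bp among the 6215 strongest of each replicate (percent), for leading and other summits of multi-summit regions and for single-summit regions; symbols are replicates, bars mean and SD. Right, share matched in all 3 replicates by rank quintile of summits with exact 95% intervals; in the middle quintile it is 48.4% for multi-summit and 83.0% for single-summit regions.

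The replicates also placed several summits inside the members' ends. In the whole replicate lists of 30000, 95.7%, 97.2% and 95.2% of members held 2 or more summits in replicates 1, 2 and 3, against 34.2%, 41.6% and 33.4% of single-summit regions, which are narrower. Among the 6215 strongest summits only, the shares were 72.6%, 81.4% and 68.2% for members and 6.05%, 11.3% and 5.25% for single-summit regions. Replicate 2 was the highest in each of these. In 417 members (46.7%) all 3 replicates had 2 or more of their strongest summits, against 36 single-summit regions (0.848%), and in 38 members (4.26%) no replicate did.

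Where a replicate had 2 or more summits in a member (854, 867 and 849 regions), its strongest lay within 150 bp of the same leading summit in 96.6%, 92.6% and 94.3%. The mean was 97.2% ± 1.41 in close, 84.2% ± 2.99 in mixed and 80.8% ± 9.71 in wide regions (SD, n = 3). In the 359 2-summit regions whose leading signal was at least 2 times the second, the same summit led in 99.5% ± 0.167, and in the 49 with a ratio under 1.2 in 71.8% ± 3.83.

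The members had a lower share of summits at promoters than single-summit regions, and a higher share in introns. A promoter was taken as 500 bp to either side of a start site, and there lay 595 of 1970 summits of members (30.2%, exact 95% interval 28.2% to 32.3%), against 1476 of 4245 single summits (34.8%, 33.3% to 36.2%), and 33.3% of the whole set. Introns held 45.0% of members' summits and 40.7% of single summits. Intergenic sequence held 20.4% of members' summits and 20.3% of single summits, and coding sequence 0.254% of members' and 0.730% of single summits. Neighbouring summits share a region, so the intervals cover counting error only and are too narrow.

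The promoter difference had the same sign in each replicate and at each strength. In the replicates' own lists, the promoter share of summits was 27.0%, 28.4% and 28.4% in multi-summit regions and 33.0%, 34.7% and 37.6% in single-summit regions of replicates 1, 2 and 3. The difference averaged -7.17 ± 1.82 percentage points (SD, n = 3; lower in 3 of 3; two-sided exact sign-flip permutation p = 0.25, the smallest that 3 replicates allow). The groups do not overlap. For introns the difference averaged 4.93 ± 0.184 points (higher in 3 of 3, p = 0.25 by the same exact test). In the optimal set, going from the weakest to the strongest rank group, the share was 26.5%, 25.2%, 28.6%, 34.2% and 31.3% in members. In the same 5 groups it was 30.9%, 36.2%, 33.8%, 39.0% and 35.1% in single-summit regions, higher in each.

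Counted by region with any summit at a promoter, the groups came close together. Of the members 321 (36.0%) had at least 1 promoter summit, against 34.8% of single-summit regions, and 35.0% of all regions. Members have several summits each, which raises their share by this count. Counted once per region by the leading summit, the difference stayed. It was 272 of 892 members (30.5%) against 34.8% of single-summit regions, or -4.28 points. The annotated start of at least 1 coding gene lay inside 29.3% of members and 21.6% of the narrower single-summit regions. Where the leading summit was at a promoter of the nearest coding gene, it lay upstream of the start in 161 of 230 members (70.0%) and in 66.6% of 1317 single-summit regions. In 58 of these 230 (25.2%) the summits lay on both sides of the start site, in 126 all upstream and in 46 all downstream.

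The summits of a region seldom left the surroundings of 1 gene. All summits shared the nearest coding start site's gene in 868 of 892 regions (97.3%), and 107 regions (12%) spanned 2 or more of the annotation classes. A mobile element of the annotation overlapped 15 members (1.68%) and 33 single-summit regions (0.777%), and 0.934% of all regions. Within 100 bp of the leading summit the shares were 0.224% of members and 0.353% of single-summit regions. By arm, 20.3% of regions on 2R were multi-summit (exact 95% interval 17.9% to 23.0%), 19.3% on 4, 16.9% on 3R, 16.7% on 3L, 16.7% on X and 16.2% on 2L.

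The share of summits with the Prospero core was higher at leading summits than at the others of the same regions, in the optimal set and in each replicate. It was present at 130 of 892 leading summits (14.6%, exact 95% interval 12.3% to 17.1%), at 89 of 1078 other summits (8.26%, 6.68% to 10.1%) and at 11.4% of single summits (10.4% to 12.3%). In equally wide windows 500 bp outside the region's ends it was present in 4.88% for members and 5.12% for single-summit regions. Over all 1970 summits the members' share was 11.1%, next to 11.3% in the whole set. The core lay 40 bp from the leading summit at the median where present, and 38.0 bp from single summits.

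The replicates' own lists gave the same order. The core was present at 14.5%, 15.7% and 14.6% of leading summits, at 7.58%, 8.98% and 8.14% of the other summits, and at 11.6%, 10.9% and 10.7% of single summits in replicates 1, 2 and 3. Leading summits were above single ones by 3.86 ± 0.917 points (SD, n = 3; 3 of 3; exact sign-flip permutation p = 0.25, the smallest possible), and over all summits the difference was 0.25 ± 0.978 points (higher in 2 of 3, exact p = 0.75). Strength moves with these shares. Weighted to the rank groups of the leading summits, single-summit regions of the optimal set had the core at 15.6%. The leading summits were at 14.6%, a difference of -1.06 points, and their exact 95% interval (12.3% to 17.1%) holds the weighted value. The higher share at leading than at single summits is thus seen without regard to rank and not at like rank. Leading and other summits of the same regions were not compared at like rank.

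**Figure D5:**
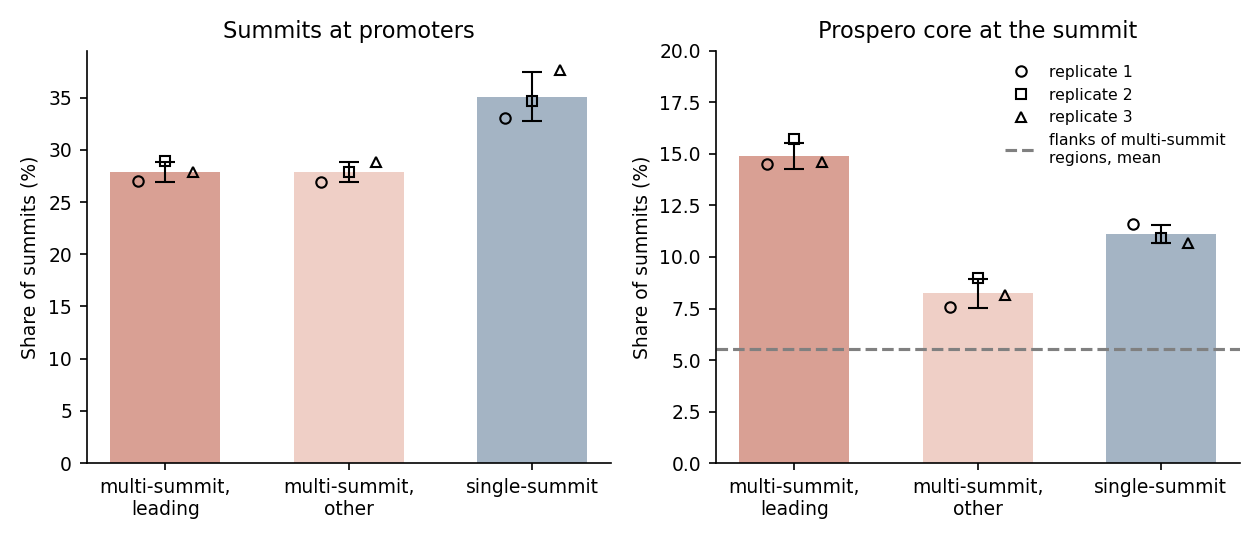
Share of summits (percent) at promoters (left) and with the Prospero core within 100 bp (right) in the replicates' own lists of strongest summits. Bars are means of 3 replicates with SD and symbols the replicates; at promoters the multi-summit groups lie below single-summit regions in each replicate, and the core is at 14.9% of leading, 8.23% of other and 11.1% of single summits on average, with the flanks of multi-summit regions as a dashed line.

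By region, 198 members (22.2%) had the core at 1 or more summits, 20 (2.24%) at 2 or more and 16 (1.79%) at every summit. Of single-summit regions 482 of 4245 (11.4%) had it. Members have 2 or more windows each, which raises their share by region. By summit it was 11.1% in members and 11.3% in the whole set. The strongest 4 of the 20 lay at aop, CG4935, tna and chn, with leading summits at ranks 28, 158, 184 and 209. Most members with a core had it at 1 summit, as at E(spl)mbeta-HLH, where it was at the strong summit and not at the weak one.

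Of 8 further motifs searched the same way on both strands, GAGAG, bound by GAGA factor, was the most frequent. It is also the shortest, so frequencies cannot be compared between motifs. It was present at 45.2% of the members' leading summits, 40.1% of their other summits, 39.3% of single summits and 40.3% of all summits, with 23.9% in the flanks of members and 21.6% in those of single-summit regions. In the 50 wide regions 60.0% of leading summits had it (exact 95% interval 45.2% to 73.6%). Weighted to the rank of the leading summits, single-summit regions were at 46.5%, inside the exact 95% interval of the leading summits (41.9% to 48.5%). The higher share of leading than of single summits was thus not seen at like rank. CAGCTG, an E-box of proneural proteins, was at 14.0% of leading, 11.9% of other, 11.1% of single and 11.6% of all summits, with 8.35% in the flanks of members.

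The homeodomain letters TAATTA went the other way, with 5.72% of leading summits and 11.4% of the flanks of members, against 7.99% of single summits and 13.6% of their flanks, and 7.58% of all summits. Weighted to the rank of the leading summits, single-summit regions had it at 6.95%, a difference of -1.23 points for the leading summits. The weighted value lies inside the exact 95% interval of the leading summits (4.29% to 7.45%). The lower share of leading than of single summits was thus not seen at like rank. CAGGTA, the site of Zelda, was at 7.29% of leading, 6.45% of single and 6.28% of all summits. TGGGAA, of Su(H), was at 12.2% of leading, 13.1% of single and 13.2% of all summits, and ATTGTT, of Sox proteins, at 18.0% of leading, 17.5% of single and 17.7% of all summits. ACCGGTT, of Grainy head, was at 1.46% of leading, 1.53% of single and 1.48% of all summits. TATCGATA, the DRE of housekeeping promoters, was at 0.224% of leading, 0.683% of single and 0.531% of all summits. GC content around the summit had a median of 47.3% at leading and 46.3% at single summits. A match of letters is a description and no measured site.

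Multi-summit regions fell on 602 of the 2502 protein-coding genes that had a summit in the gene body or within 1 kb upstream (24.1%), and 130 genes had 2 or more. Genes with such a region had a median length of 14.0 kb, against 5.35 kb for genes with single-summit regions only. The genes with most were pros and jing, a zinc finger gene, with 7 each, then tou, hth and N with 6 each. The jing gene had 32 summits in 23 regions over 120 kb, and N, the Notch receptor gene, 16 summits in 8 regions over 37.4 kb. After these came tara, sbb, lola and psq with 5 regions each and Tlk with 4. Of these, hth encodes a TALE homeodomain protein, lola and psq encode BTB proteins, and Tlk a kinase linked to chromatin assembly.

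Gene lists of 11 kinds are described by counts next to that 24.1%, with no test. Of 19 matched Notch pathway genes with a summit 13 (68.4%) had a multi-summit region. The strongest ranked 4 at E(spl)mbeta-HLH, 16 at neur, 48 at E(spl)m7-HLH and 50 at spdo, which acts in asymmetric Notch signalling. Ser, a Notch ligand gene, and kuz, a Notch-cleaving protease gene, had summits but no such region. Neighbours of the Enhancer of split complex can share a region.

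Chromatin regulators had the highest share, with 13 of 17 (76.5%). The list was chosen with earlier results of these data known. It holds jing, tou, sbb and psq, which are among the genes with most multi-summit regions, and mam, which is also in the Notch list. Whether a list chosen without such knowledge would have the highest share was not tested. The strongest multi-summit regions of the chromatin list ranked 11 at kis, 14 at ph-d, 21 at Trl and 47 at sbb. By contrast trx, the Trithorax histone methyltransferase gene, had 4 summits, the strongest at rank 23, all in single-summit regions, and brm, the SWI/SNF ATPase gene, had 1. Of cell cycle genes 9 of 13 with a summit had a member, led by tara at rank 25, CycE at 66, E2f1 at 174 and fzr, an activator of the anaphase-promoting complex, at 345. Cdk4 and dup had summits but no multi-summit region.

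Among asymmetric division genes 6 of 9 had one, with brat at rank 93, then insc, a gene of spindle orientation, numb, a Notch inhibitor passed to 1 daughter, at 224 and cno at 385. The Prospero adaptor gene mira had 3 summits in 1 such region at rank 462. The polarity genes baz and aPKC had summits in single-summit regions only. Axon guidance and adhesion genes had 11 of 24, led by robo2 at 193, sli, the gene of the Robo ligand Slit, at 244, Ten-m at 339 and Sema1a at 350. Lac, with a summit of rank 7, and Con, with one of rank 325, had none.

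Neuroblast transcription factors had 11 of 24 (45.8%), with pros at 6, E(spl)mgamma-HLH at 142, tll at 373 and nub at 524, while sna and l(1)sc each had 1 summit in a single-summit region. The list of neuronal transcription factors had 6 of 22 (27.3%), near the 24.1% of all genes with a summit, with elav at rank 34, zfh2 at 54, jumu at 276 and lola at 296. It holds elav, which encodes an RNA-binding protein and no transcription factor, and without elav, a count added after seeing the data, it was 5 of 21 (23.8%). The gene chinmo, a BTB regulator of neuronal timing, had 8 summits in 8 regions, none of them multi-summit, and zfh1 had 4 in 4. Hox and segmentation genes had 9 of 26 (34.6%), with hth at 98, Ubx at 271, tll at 373 and Antp at 507, and none at wg or gsb.

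Synaptic and neuronal function genes had 3 of 8, at Csp, fne and cpx. Ribosomal protein genes had 0 of the 14 with a summit, RpL11 and RpS4 among them, and of chemoreceptor genes only Gr32a had a summit, in a single-summit region. The lists differ in gene length. Among the lists with the higher shares, the median length of the matched genes was 12.2 kb for chromatin regulators, 3.43 kb for the cell cycle, 1.30 kb for Notch and 11.5 kb for asymmetric division. It was 42.8 kb for axon guidance, 3.93 kb for neuroblast and 15.3 kb for neuronal transcription factors, 6.84 kb for Hox and segmentation and 27.7 kb for synaptic genes. For ribosomal proteins it was 1.43 kb and for chemoreceptors 1.81 kb, next to 2.17 kb over all coding genes. The part of gene length in these counts was not tested.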

How the data were processed

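The deposited files are narrowPeak lists on dm6 from 3 replicates, 30000 peaks each, a pooled list of 30000 and the authors' optimal set of 6215, the strongest of the pooled list. Per the deposited file descriptions the replicate lists share 1 control, which was not used here, and the optimal set passed a cut-off on irreproducible discovery rate. The sources used here name neither caller, aligner nor that cut-off. The signal is the deposited value of the authors' caller, on an unstated scale, and was used only within a list. The deposited −log10 q-value is 4.30 throughout the optimal set and orders nothing. Summit offsets are as deposited by the authors. Read counts are not in these lists. Depth is therefore unknown, and exact Clopper-Pearson 95% intervals cover counting error of summits only.

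Genes came from Ensembl release 115 (BDGP6), coding and ncRNA genes, and sequence from the RefSeq copy of that assembly. Each summit took the first class that applied of promoter (within 500 bp of a start), UTR, coding or other exon, intron and intergenic. Summits were matched one to one within 150 bp, and replicate differences tested by exact sign flips. Python 3.11.15, numpy 2.4.6, pandas 2.3.3 and scipy 1.17.1 were used, and the counting steps were checked on simulated peaks. Members, lists, motifs and tests were chosen with earlier results of these data known. Named are the 10 regions with most summits, the 10 strongest, 2 on each side of the rule's edge, the 10 genes with most regions and, per list, up to 4 members with the strongest region and 2 without one, these 2 picked after their values were seen. A region is called by the nearest coding start site of its leading summit. Alternatives varied the set, the matching, the promoter width, the motif window and the gene links.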

Additional observations from a re-analysis of the deposited data

How the results depend on the processing

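No paired analysis was possible because the samples form 1 group, so no groups of samples share replicate numbers; multi-summit and single-summit regions were compared within each replicate's own list. The number of multi-summit regions was 892, against 408 in the stronger 50% of the set, 1905 in the whole pooled list and 167 when summits had to lie at least 300 bp apart, an alternative chosen after seeing the data. Without 1 replicate it was 748 to 759, counting summits matched within 150 bp in the whole lists of both others, not among their strongest only. With overlapping regions merged it was 1035. The median spacing was 207 bp in the stronger 50%. The median rank percentile was 41.4 for the weakest summit of each region and 70.2 over all members' summits. Mean recurrence of members' summits was 71.1% within 50 bp, 87.3% with several matches to 1 summit allowed, 94.8% in whole lists and 82.7% to 84.9% without 1 replicate. Members with 2 or more summits in a replicate were 96.0% in whole lists and 70.4% to 77.0% without 1 replicate among the strongest. The same summit led in 81.0% within 50 bp and in 93.5% to 95.5% without 1 replicate. The promoter share was 41.6% with promoters of 1000 bp. Counted by summit, its difference from single-summit regions kept its sign in every alternative run, from -5.43 to -4.13 points. In the own lists it was -7.76 to -6.12 points without 1 replicate. Counted by region with any promoter summit the sign was the other, at 36.0% of members and 34.8% of single-summit regions. The core share was 6.70% within 50 bp of the summit, 18.5% within 200 bp and 14.6% at leading summits. Its difference of -0.238 points was 1.87 within 200 bp and 3.22 at leading summits, so both reversed, and it was -2.41 at like rank and -1.48 for the 5 letters AAGAC. In the own lists it was -0.197 to 0.772 without 1 replicate, reversed without replicate 2. The cause of these changes was not tested. With ncRNA genes included, 94.4% of regions shared the nearest gene. Genes with a multi-summit region were 602, against 397 when a summit had to lie within 1 kb of a start site and 877 with 5 kb upstream. Unknown depth limits the recurrence of weak summits.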
